A study of Mus musculus with 32 samples.

Results

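The 8 genes described here are Lin28a, Lin28b, Trim71, Hmga1, Hmga2, Igf2bp1, Igf2bp2 and Igf2bp3. They were chosen by gene symbol from the 55573 genes of the deposited tables. No measured value entered that rule, but earlier results of these data were known when the genes were chosen. The 8 are the 2 LIN28 proteins and 6 mRNAs that let-7 is known to repress. All 8 had a row in every table and passed the filter on low counts in every comparison. The 32 RNA libraries come from mouse ESC (embryonic stem cells; strain 129S5/SvEvBrd) and from neural cells derived from them. Every line carries a tagged Smarce1, the gene of the SWI/SNF chromatin remodelling subunit BAF57. The genotype is Smarce1-MD or Smarce1-MD(R42A), called MD and R42A below. From general knowledge, and not from the labels, MD is read as a mitotic degron that removes its protein at mitotic exit and R42A as its inactive form. No untagged cells were analysed, so R42A served as the control. ESC were untreated and kept in serum and LIF on gelatin, with 4 R42A clones (A04, A10, A01, A02) and 4 MD clones (09, 30, 45, 47) of 3 libraries each. Neural cells had been kept for 6 days in RHB-A medium (also spelled RHA-B in the labels), and carry the clone labels A04, A10, 09 and 30 with 2 libraries each. Clones A04, A10, 09 and 30 make up a first library run in ESC and the other 4 a second, read from consecutive library numbers. All neural libraries form a further run, so stage and library run cannot be told apart.

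LIN28A and LIN28B bind the precursors of the let-7 microRNAs and block their maturation, and LIN28A also brings in the terminal uridylyltransferases TUT4 and TUT7, whose uridine tails mark the precursor for decay by DIS3L2. Mature let-7 in turn pairs through its seed with sites in 3' untranslated regions (UTRs), including those of Lin28a and Lin28b, so that the LIN28 proteins and let-7 restrain each other. TRIM71, the HMGA chromatin proteins and the IGF2BP RNA-binding proteins are abundant in early embryos and fetal progenitors, where LIN28 is high, and decline as tissues mature and let-7 accumulates. LIN28 and let-7 were first described as heterochronic genes, which set the timing of cell fates, and this role includes neural progenitors.

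The let-7 sequences are shown because their shared seed defines the sites searched for in the 8 genes. RefSeq's table for GRCm38.p6 held 11 mature let-7 family members of mouse, of which 10 share the seed GAGGUAG at bases 2 to 8 and let-7j has GAGGUAU. Capitals mark the seed. The sequences lie at chr13:48538239-48538260 (let-7a, minus strand), chr9:106178846-106178867 (let-7g, plus strand), chrX:151913229-151913250 (miR-98, plus strand) and chr3:140028281-140028304 (let-7j, plus strand).
let-7a: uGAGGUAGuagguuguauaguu
let-7g: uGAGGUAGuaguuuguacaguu
miR-98: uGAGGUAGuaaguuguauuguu
let-7j: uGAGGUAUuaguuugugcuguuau

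The reverse complement of the seed, CTACCTC, was searched on the transcript strand of the longest annotated 3' UTR of each gene (GENCODE M21, mm10). A match followed by A, CTACCTCA, is called an 8-base match and any other a 7-base match. All 8 genes held at least 1 match, against 9.04% of the 20791 genes with an annotated 3' UTR, and let-7 targeting was part of what brought these genes together. Igf2bp1, Hmga2, Lin28b and Trim71 held 4 matches each, a number reached or passed by 0.167%, 0.0829%, 0.223% and 0.362% of genes whose UTR was of like length (80% to 125% of theirs). Only in Trim71 were all 4 of the 8-base kind. Lin28a held 2 matches, both of 8 bases (2.03% of genes of like length had as many), and Igf2bp2, Igf2bp3 and Hmga1 held 1 (8.09% to 13.3% of genes of like length). The windows below show, for each gene, the 30 bases that end just past the match nearest to the stop codon, with the match in capitals. They come from the mm10 reference, not from the 129S5 strain, and a match is a description of the letters, not a measured site.
Lin28a: ttggagtgcacagcctgttgaaCTACCTCA
Lin28b: tcccttcacccgggcgggaagtCTACCTCA
Trim71: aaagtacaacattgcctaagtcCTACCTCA
Hmga1: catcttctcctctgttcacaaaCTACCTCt
Hmga2: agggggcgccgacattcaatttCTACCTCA
Igf2bp1: aggcagtgctgtgcgaagtaaaCTACCTCA
Igf2bp2: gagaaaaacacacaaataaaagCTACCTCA
Igf2bp3: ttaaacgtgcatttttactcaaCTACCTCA

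These windows lie at chr4:134005189-134005218 (Lin28a), chr10:45381022-45381051 (Lin28b), chr9:114512472-114512501 (Trim71), chr17:27563270-27563299 (Hmga1), chr10:120364224-120364253 (Hmga2), chr11:95961778-95961807 (Igf2bp1), chr16:22059473-22059502 (Igf2bp2) and chr6:49086787-49086816 (Igf2bp3). The Hmga1 window is on the plus strand and the other 7 are on the minus strand. Hmga1b, a near-identical copy of Hmga1, holds the same 30 letters at chr11:120763991-120764020. In Lin28b and Hmga2 the match nearest to the coding sequence starts at base 36 and base 58 of the UTR, while in Igf2bp1 it starts at base 1715 of 6337.

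**Figure D1:**
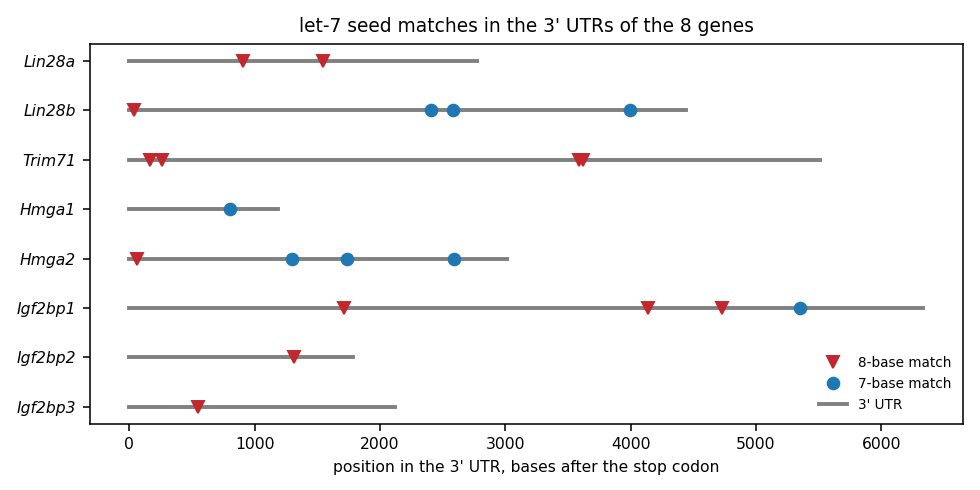
Positions of let-7 seed matches (x axis, bases after the stop codon) in the longest annotated 3' UTR of each of the 8 genes (grey line), with 8-base matches as red triangles and 7-base matches as blue circles. The 4 Trim71 matches are all of the 8-base kind, and the Igf2bp1 UTR of 6337 bases is the longest of the 8.

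Libraries held between 38699951 and 96424439 counts. Smarce1 RNA was 107 ± 13.8 CPM (normalised read count on the TMM-scaled library size) in R42A ESC and 117 ± 4.85 CPM in MD ESC (SD, n = 4 clones), and 233 ± 1.73 and 298 ± 7.21 CPM in neural cells (SD, n = 2 clone labels). For MD against R42A, the log2 change of Smarce1 in ESC did not pass (0.09 ± 0.09, adjusted p = 0.438 in edgeR). In neural cells it was 0.34 ± 0.09 and passed (adjusted p = 0.0293 in edgeR). Smarce1 lies on chromosome 11, whose tested genes had a median change of 0.48 in neural cells. Since MD is read as acting on the protein, the Smarce1 RNA level does not check the labels. The 7 ESC markers, Pou5f1 and Nanog among them, summed to 5150 to 6750 CPM in R42A ESC. Their sum was 4210 to 5940 CPM in MD ESC and 31.3 to 54.2 CPM over neural libraries. In MD ESC, 5 of the 7 were lower than in R42A, 0 higher and 2 did not pass (adjusted p under 0.05 in edgeR). There, 17.1% of all genes were higher and 19.4% lower. Neural progenitor markers (6 genes, among them Sox1, Pax6 and Nes) summed to 29.7 to 53.1 CPM in R42A ESC. In MD ESC the sum was 55.9 to 115 CPM, where 1 of 5 tested genes was higher, 1 lower and 3 did not pass. In neural cells it was 912 to 970 CPM in R42A and 676 to 698 CPM in MD. Tested gene by gene (adjusted p under 0.05 in edgeR), 2 of the 6 were higher in MD neural cells, 1 was lower and 3 did not pass. Their median log2 change was 0.09, and 17.4% of all genes were higher and 16.3% lower. Neuron markers (5 genes, among them Tubb3 and Dcx) summed to 608 to 714 CPM in R42A and 1760 to 1850 CPM in MD neural cells. All 5 were higher in MD neural cells, with a median log2 change of 1.65, where 17.4% of all genes were higher. Smooth muscle and fibroblast markers (Acta2, Tagln, Col1a1, Col3a1) summed to 2.74 to 19.5 CPM in R42A ESC and 27.6 to 204 CPM in MD ESC. All 4 were higher in MD ESC by the same kind of test, where 17.1% of all genes were. In neural cells the 4 summed to 190 to 213 CPM in R42A and 70.5 to 75.7 CPM in MD. There, 2 of the 4 were higher in MD and 2 lower. Endoderm markers summed to 93.4 to 119 CPM and 54.7 to 70.4 CPM in R42A and MD neural cells. Of these 5 genes, 1 was lower in MD neural cells and 4 did not pass. The part of these markers in the results on the 8 genes was not tested. The libraries are bulk RNA, in which fewer cells of a type and less RNA per cell cannot be told apart.

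Per kilobase of exon, the order of the 8 genes differed between the stages. In R42A ESC, Hmga1 (81.6 ± 40.6 CPM per kb), Lin28a (64.7 ± 6.25) and Igf2bp1 (45.6 ± 4.21) were the highest, followed by Trim71 at 23.9 ± 3.60, and the Hmga1 value carries a wide spread between library runs. Igf2bp2 and Igf2bp3 did not differ beyond their spread, at 14.6 ± 1.40 and 14.5 ± 1.299 CPM per kb. Lin28b at 7.99 ± 1.00 and Hmga2 at 2.12 ± 0.0898 CPM per kb were the lowest (SD, n = 4 clones). In R42A neural cells Hmga1 was again the highest. Hmga2 had become 1 of the 3 highest, at 62.2 ± 0.267 CPM per kb, behind Lin28a at 66.3 ± 0.189. Igf2bp1 followed at 49.4 ± 2.19. Trim71 was then the lowest of the 8, at 18.2 ± 0.813 CPM per kb (SD, n = 2 clone labels).

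**Figure D2:**
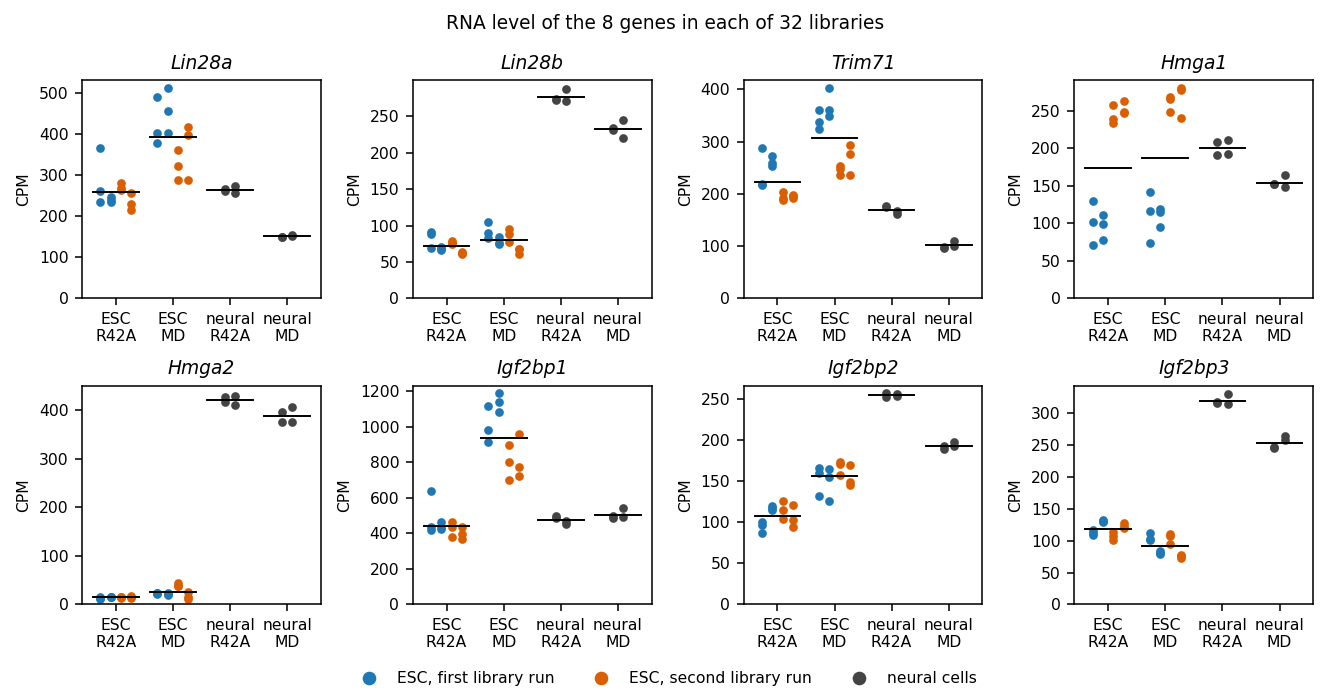
RNA level of each of the 8 genes (y axis, CPM) in each of the 32 libraries, by stage and genotype, with ESC libraries of the first run in blue, of the second run in orange and neural libraries in grey. Black lines are group means over clones. Lin28b, Hmga2 and Igf2bp3 libraries lie higher in neural cells than in ESC in both genotypes, and Hmga1 separates ESC libraries by run.

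In ESC, 5 of the 8 genes were higher in MD than in R42A (Igf2bp1, Hmga2, Lin28a, Igf2bp2 and Trim71) and 1 was lower (Igf2bp3), while Hmga1 and Lin28b did not pass the test. The log2 changes of the 5 ran from 0.41 to 1.03. Calls here are an adjusted p under 0.05 from edgeR's quasi-likelihood F-test on clone sums with Benjamini-Hochberg adjustment over all genes tested. The same test called 36.5% of all 21567 genes, 17.1% of them higher and 19.4% lower. The 12 MD and 12 R42A libraries were fully apart for Igf2bp1 alone of the 8 genes, against 5.65% of all genes. The 5 higher calls fell to 3 without the library run term, which lost Hmga2 and Trim71. The lower call of Igf2bp3 is the least secure, as described with that gene.

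After 6 days in neural medium the direction was different. In MD neural cells 4 of the 8 genes were lower than in R42A (Lin28a, Trim71, Igf2bp2 and Hmga1, with log2 changes from -0.81 to -0.39) and 0 were higher, where 33.7% of all 23844 genes were called, 17.4% higher and 16.3% lower. Igf2bp3 at -0.34, Lin28b at -0.25, Hmga2 at -0.12 and Igf2bp1 at 0.08 did not pass. The 4 MD and 4 R42A libraries did not overlap for 7 of the 8 genes, all but Igf2bp1, each with MD below, but 50.6% of all genes also had neural libraries that did not overlap. Without clone 09 or without clone 30, each of which leaves a lone MD label that is assumed to vary like the other groups, 2 of the 4 calls held (Lin28a and Trim71). With the neural sums fitted alone 7 of the 8 genes passed as lower, and 13643 genes passed in all.

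**Figure D3:**
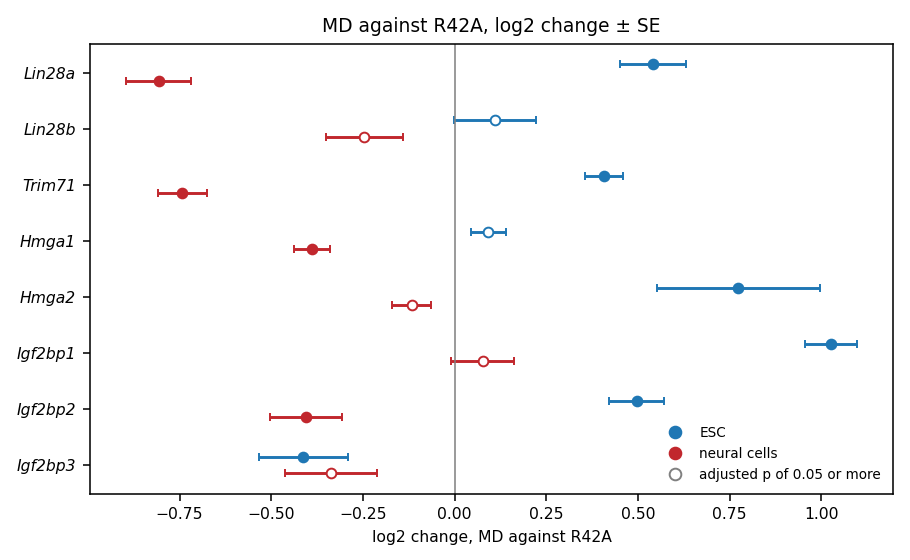
Difference between MD and R42A (x axis, log2 change) for each of the 8 genes in ESC (blue, 8 clone sums) and in neural cells (red, 8 sums in a joint fit with ESC), with bars of 1 SE. Open circles mark an adjusted p of 0.05 or more. Lin28a, Trim71 and Igf2bp2 lie right of 0 in ESC and left of 0 in neural cells.

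The difference between these effects was tested directly, as the MD effect in neural cells less that in ESC of the same 4 clone labels. It was negative and passed for 6 of the 8 genes, with 22.9% of all genes called (11.9% higher, 11.1% lower). From the largest down, these were Lin28a at -1.48 ± 0.12 (SE), Trim71 at -1.19 ± 0.09, Igf2bp1 at -1.05 ± 0.12, Igf2bp2 at -0.89 ± 0.14, Hmga2 at -0.73 ± 0.08 and Hmga1 at -0.52 ± 0.07 on the log2 scale. Their adjusted p-values in edgeR ran from 0.000569 to 0.00519. Lin28b at -0.37 ± 0.15 and Igf2bp3 at 0.09 ± 0.18 did not pass. All 6 kept their sign but lost the call when clone 09 or clone 30 was left out, with 0 of the 8 genes and 77 or 114 genes called in all. With all 12 sums, Hmga1 and Hmga2 no longer passed (adjusted p = 0.782 and 0.175 in edgeR), and Hmga1 did not pass with libraries as replicates either (0.0508).

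Between ESC and neural cells, 5 genes rose in both genotypes: Hmga2, Lin28b, Igf2bp3, Igf2bp2 and Hmga1, the last of which turned to -0.31 in MD when all 12 sums were used. In R42A, Trim71 was the 1 gene that fell and Lin28a and Igf2bp1 did not pass. In MD, Trim71, Lin28a and Igf2bp1 all fell. Libraries of the 2 stages did not overlap for 5 of the 8 genes in R42A (59.1% of all genes) and for 7 in MD (62.9%). Of the 8 genes, 6 were called in R42A, where 78.3% of all genes were called (37.9% higher, 40.4% lower), and 8 in MD, where 81.3% were called (40.3% higher, 41% lower). The comparisons draw on the same sums as the MD comparisons, and the ESC sums are of the first library run only.

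**Figure D4:**
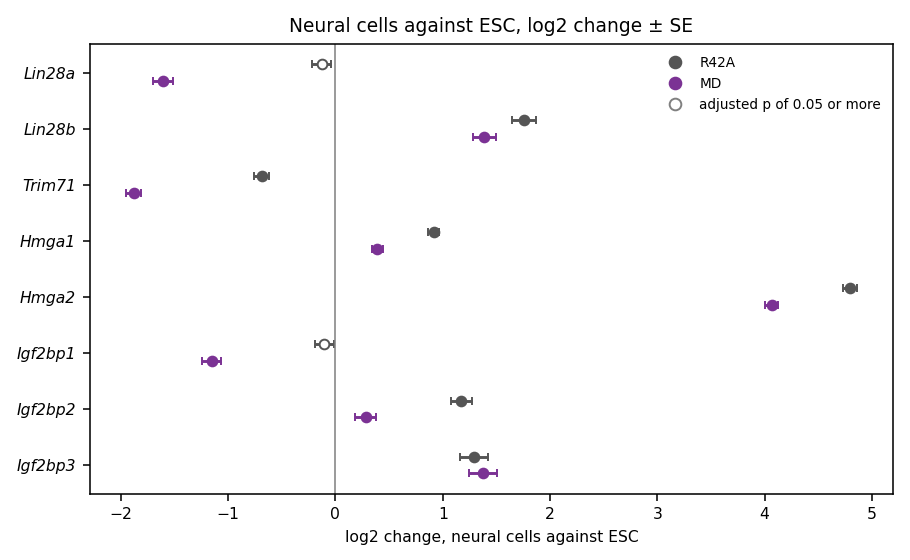
Difference between neural cells and ESC (x axis, log2 change) for each of the 8 genes in R42A (grey) and MD (purple), from 1 fit on 8 sums, with bars of 1 SE and open circles for an adjusted p of 0.05 or more. Hmga2 stands far to the right in both genotypes, at 4.79 and 4.07, and Lin28a and Igf2bp1 lie near 0 in R42A alone.

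Lin28a (ENSMUSG00000050966.9, chromosome 4, 134003330 to 134018841 in mm10, minus strand) encodes the LIN28 paralog that ESC express most. The 12 R42A ESC libraries ran from 216 CPM over a median of 252 to 366 CPM, and the 12 MD libraries from 288 over 400.5 to 513 CPM. The ranges overlapped through replicate 3 of clone A04, at 366 CPM, but the 4 MD clones (324 to 457 CPM) all lay above the 4 R42A clones (234 to 287 CPM). The log2 change was 0.54 ± 0.09 (SE, adjusted p = 0.00209 in edgeR), and was 0.69 in the first library run and 0.45 in the second, each fitted alone. In neural cells the order was the opposite, with R42A libraries at 267, 262, 256 and 275 CPM and MD libraries at 149, 149.7, 155 and 152.5 CPM. MD was thus lower in every neural library, by a log2 change of -0.81 ± 0.09 (adjusted p = 0.000767 in edgeR). The comparison of stages used the first-run ESC clones alone. In R42A these were at 287 (A04) and 241 CPM (A10), on either side of the neural mean of 265 ± 0.757 CPM, and the change did not pass (log2 change -0.13 ± 0.09, adjusted p = 0.217 in edgeR). In MD they were at 424 (09) and 457 CPM (30), and Lin28a fell to 151.5 ± 3.23 CPM (log2 change -1.61 ± 0.09, adjusted p = 2.67e-06). Without clone A10 the R42A change passed at -0.27 (adjusted p = 0.00117 in edgeR), and without clone A04 it was 0.02.

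Lin28b (ENSMUSG00000063804.8, chromosome 10, 45376620 to 45486395, minus strand) encodes the paralog known from later embryonic and neural progenitors. ESC libraries ran from 60.7 over 69.5 to 90.9 CPM in R42A and from 60.7 over 80.01 to 105 CPM in MD. The 2 genotypes overlapped, and the log2 change of 0.11 ± 0.11 did not pass (adjusted p = 0.475 in edgeR). Neural libraries were at 274, 272.5, 288 and 271 CPM in R42A and at 234, 232, 246 and 220.2 CPM in MD. All 8 lay above every ESC library, and the 4 MD libraries lay below the 4 R42A ones. The MD change in neural cells, -0.25 ± 0.11, did not pass (adjusted p = 0.117 in edgeR), and passed only when the neural sums were fitted alone (adjusted p = 1.36e-07). From ESC to neural cells Lin28b rose by 1.76 ± 0.11 on the log2 scale in R42A (adjusted p = 4.99e-06 in edgeR) and by 1.39 ± 0.11 in MD (adjusted p = 1.44e-05). Within each neural genotype the CPM per kb of Lin28b, 30.5 ± 0.490 in R42A and 25.7 ± 0.00977 in MD, remained below that of Lin28a (66.3 ± 0.189 and 37.9 ± 0.809).

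Trim71 (ENSMUSG00000079259.2, chromosome 9, 114507133 to 114564369, minus strand) encodes an RNA-binding ubiquitin ligase family protein, the mouse form of the heterochronic gene lin-41, that represses mRNAs in stem and progenitor cells. R42A ESC libraries ran from 188 over 209.6 to 289 CPM and MD libraries from 236 over 309 to 402 CPM. The pooled ranges overlapped because the second library run was lower, by a log2 change of -0.41 ± 0.05 in the fit (adjusted p = 0.000283 in edgeR). Within the first run the R42A clones were at 241 and 262 CPM and the MD clones at 341 and 371 CPM, and within the second at 194 and 196 against 245.5 and 269.5 CPM. MD was above R42A in each run, with a log2 change of 0.41 ± 0.05 overall (adjusted p = 0.000559 in edgeR), and 0.47 and 0.41 in the runs fitted alone. Without the library run term the value was again 0.41, short of the threshold (adjusted p = 0.116 in edgeR). In neural cells R42A libraries were at 177, 174, 162 and 168 CPM and MD libraries at 97.2, 99.3, 109 and 100.3 CPM. MD was lower, by -0.74 ± 0.07 on the log2 scale (adjusted p = 0.000366 in edgeR). The fall from ESC to neural cells was -0.69 ± 0.07 in R42A (adjusted p = 5.37e-05 in edgeR) and -1.88 ± 0.07 in MD (adjusted p = 3.68e-07). Trim71 was the 1 gene of the 8 that fell in both genotypes.

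Hmga2 (ENSMUSG00000056758.14, chromosome 10, 120361275 to 120476469, minus strand) encodes an AT-hook chromatin protein of embryonic and young neural stem cells, and is the textbook let-7 target. Per kilobase it was the lowest of the 8 genes in ESC. R42A libraries ran from 11.6 over 14.4 to 17.0 CPM and MD libraries from 11.5 over 22.9 to 43.4 CPM. The MD clones differed among themselves, at 22.5, 22.1, 39.9 and 17.6 CPM for clones 09, 30, 45 and 47, and the 3 libraries of clone 47 alone spanned 11.5 to 25.6 CPM. The 4 R42A clones, at 13.5 to 14.8 CPM, lay below all 4. The log2 change was 0.77 ± 0.22 (adjusted p = 0.0249 in edgeR), and it no longer passed without A04, A10, 09, A01 or A02 (adjusted p from 0.0559 to 0.0784, values from 0.73 to 0.88), without the filter on low counts (0.131), without the run term (0.0657) or in the second run alone (0.257). Without clone 45 the value was 0.44 ± 0.10 and passed (adjusted p = 0.0138 in edgeR). In neural cells R42A libraries were at 427, 418, 428.5 and 411 CPM and MD libraries at 396, 376, 406 and 376 CPM. The MD libraries lay just below the R42A ones, and the change of -0.12 ± 0.05 did not pass (adjusted p = 0.139 in edgeR). The rise from ESC was 4.79 ± 0.06 in R42A (27.8-fold, adjusted p = 1.98e-08 in edgeR) and 4.07 ± 0.06 in MD (16.8-fold, adjusted p = 2.04e-08), the largest of the 8 genes in each genotype.

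Hmga1 (ENSMUSG00000046711.16, chromosome 17, 27556497 to 27563674, plus strand) encodes the related HMGA protein of many dividing cells. Its ESC libraries separated by library run. R42A clones were at 101, 96.4, 243 and 253 CPM (A04, A10, A01, A02) and MD clones at 110.5, 110 and then 260.5 and 266 CPM (09, 30, 45, 47). The second run was higher by 1.31 ± 0.05 on the log2 scale (adjusted p = 3.13e-07 in edgeR), where 44.1% of all genes were called between the runs. Allowing for the run, MD and R42A ESC differed by 0.09 ± 0.05, which did not pass (adjusted p = 0.154 in edgeR). Neural libraries were at 190.4, 208, 192 and 211 CPM in R42A and at 152, 152, 148 and 164 CPM in MD. The neural genotypes did not overlap and MD was lower by -0.39 ± 0.05 on the log2 scale (adjusted p = 0.00136 in edgeR). It did not pass when clone 09 or 30 was omitted (adjusted p = 0.0582 and 0.0534) or when all 12 sums were used (adjusted p = 0.75).

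The rise of Hmga1 from ESC to neural cells depends on which ESC clones stand for ESC. Against the first run it was 0.91 ± 0.05 in R42A (adjusted p = 2.59e-06 in edgeR) and 0.39 ± 0.05 in MD (adjusted p = 0.000215). With all 12 sums it was 0.17 ± 0.47 in R42A and turned to -0.31 ± 0.48 in MD, neither of which passed (adjusted p = 0.769 and 0.584). The neural levels lie between those of the 2 ESC runs, and the neural libraries are of a run of their own. The counts are also uncertain in another way, because 55.0% of the 50-base words in Hmga1 transcripts are also in those of Hmga1b (chromosome 11, 120762794 to 120764419), and the authors' counting could split reads between them. Hmga1b differed between the ESC runs by 1.41 ± 0.06 on the log2 scale. With both counted together, the MD change was 0.11 in ESC and -0.37 in neural cells (adjusted p = 0.00308 in edgeR).

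Igf2bp1 (ENSMUSG00000013415.9, chromosome 11, 95957163 to 96005940, minus strand) encodes an oncofetal RNA-binding protein, also known as IMP1, that stabilises and localises target mRNAs. R42A libraries ran from 369 over 435 to 637 CPM and MD libraries from 700 over 937 to 1189 CPM, and every MD library lay above every R42A library. The log2 change was 1.03 ± 0.07 (2.04-fold, adjusted p = 4.12e-05 in edgeR), and it passed in each library run fitted alone, at 1.15 and 0.96. In neural cells the genotypes overlapped, with R42A at 487.5, 498.5, 472 and 454 CPM and MD at 497, 484, 542 and 493.2 CPM (log2 change 0.08 ± 0.09, adjusted p = 0.537 in edgeR). The neural level was near that of R42A ESC, so that Igf2bp1 fell from ESC to neural cells in MD by -1.15 ± 0.09 on the log2 scale (adjusted p = 1.27e-05 in edgeR) while its value in R42A, -0.10 ± 0.09, did not pass (adjusted p = 0.3).

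The tested genes of chromosome 11, where Igf2bp1 lies, had a median log2 change in MD of 0.45 in ESC and 0.48 in neural cells. On the chromosomes of the other 7 genes the medians ran from -0.14 to 0.01. With each chromosome scaled separately, Igf2bp1 was still higher in MD ESC, by 0.56 ± 0.08 (adjusted p = 0.00152 in edgeR), beside 0.80 for Hmga2 and 0.57 for Lin28a, but was lower in MD neural cells, by -0.37 ± 0.11 (adjusted p = 0.0362). The difference of the effects was -1.04 under that scaling, against -1.05.

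Igf2bp2 (ENSMUSG00000033581.17, chromosome 16, 22059009 to 22163299, minus strand) encodes the family member known for neural progenitor and metabolic roles. ESC libraries ran from 86.5 over 109 to 126 CPM in R42A and from 126 over 158.5 to 173 CPM in MD. They met only at 126 CPM, and the MD clones (149 to 167 CPM) all lay above the R42A clones (94.3 to 117 CPM). The log2 change was 0.50 ± 0.08 (adjusted p = 0.00134 in edgeR). With the first run alone it was again 0.50 but did not pass (adjusted p = 0.0767 in edgeR). With the second alone it was 0.55 and passed (adjusted p = 0.00319). Neural libraries were at 257, 253, 256 and 254 CPM in R42A and at 193, 189.7, 193 and 198 CPM in MD. MD was lower by -0.41 ± 0.10 (adjusted p = 0.0178 in edgeR), a call lost without clone 09 or 30 (adjusted p = 0.199 and 0.181). From ESC to neural cells Igf2bp2 rose by 1.17 ± 0.10 in R42A (adjusted p = 2.55e-05 in edgeR) and by 0.28 ± 0.10 in MD (adjusted p = 0.0294), and the rise in MD did not pass without clone 09 or 30 (adjusted p = 0.202 and 0.239), with the replicate block (0.0521), with DESeq2 size factors (0.0545) or with no filter on low counts (0.0621).

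Igf2bp3 (ENSMUSG00000029814.10, chromosome 6, 49085223 to 49214957, minus strand) encodes the member most restricted to fetal tissue. Its ESC change ran against the others of the family. R42A libraries ran from 101 over 118 to 133 CPM and MD libraries from 72.5 over 89.4 to 112 CPM. Libraries overlapped, and the MD clones 09 and 45 at 105 and 104.5 CPM were close to the lowest R42A clone at 107 CPM, while clones 30 and 47 stood at 81.4 and 75.4 CPM. The log2 change of -0.41 ± 0.12 passed (adjusted p = 0.0282 in edgeR), but not without A10, 30, A02 or 47 (adjusted p from 0.0726 to 0.108) nor with either run alone (0.171 in both). Neural libraries were at 318, 316, 330 and 315 CPM in R42A and at 247, 246, 264 and 258 CPM in MD. They did not overlap, yet the change of -0.34 ± 0.13 did not pass (adjusted p = 0.0802 in edgeR), and it passed with DESeq2 (adjusted p = 0.04) and with the neural sums alone (adjusted p = 1.09e-09). Igf2bp3 rose from ESC to neural cells by 1.29 ± 0.13 in R42A (adjusted p = 6.19e-05 in edgeR) and 1.38 ± 0.13 in MD (adjusted p = 4.01e-05), and it was the 1 gene of the 8 with a positive difference of the MD effects.

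Of 23 genes whose products make, destroy or use let-7, 6 were higher and 4 lower in MD ESC, where 17.1% and 19.4% of all genes were, and 3 were higher and 6 lower in MD neural cells, where 17.4% and 16.3% were. The median log2 changes were -0.04 and -0.02, against -0.04 and 0.00 over all genes tested. In ESC, Dis3l2, the nuclease that degrades uridylated let-7 precursors, was 30.8 ± 1.26 CPM in R42A and 22.3 ± 2.80 CPM in MD (SD, n = 4 clones; log2 change -0.49 ± 0.07, adjusted p = 0.00135 in edgeR). Ddx17, a helicase of the Drosha complex, was also lower, by -0.51 ± 0.06 (adjusted p = 0.000549 in edgeR). Its partner Ddx5 was higher by 0.29 ± 0.06, but it lies on chromosome 11 and turned to -0.18 with each chromosome scaled separately. In neural cells Tnrc6c, which recruits the deadenylases that silence microRNA targets, was 119 ± 1.73 CPM in R42A and 202 ± 3.06 CPM in MD (log2 change 0.76 ± 0.05, adjusted p = 0.000158 in edgeR). Tnrc6c also lies on chromosome 11, with its median of 0.48, and with each chromosome scaled separately its change was 0.32 ± 0.06 (adjusted p = 0.00662 in edgeR). Ago2, the slicing Argonaute, was lower by -0.46 ± 0.08 (adjusted p = 0.00612 in edgeR), a call lost without clone 09 or 30 (adjusted p = 0.12 and 0.121). From ESC to neural cells 13 of the 23 rose and 4 fell in R42A, beside 37.9% and 40.4% of all genes. Among those that rose was Msi1, a neural RNA-binding protein that acts with LIN28 on let-7 precursors, which went from 19.7 ± 4.13 to 267.5 ± 10.0 CPM.

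The let-7 genes themselves could not be followed. Of 12 let-7 hairpin genes with a row, 0 passed the filter on low counts, and mature let-7 was not measured. Of 6 host transcripts listed, 3 were found in the tables. Mir99ahg, the host of a let-7c hairpin, was 0.00101 ± 0.00202 CPM in R42A ESC (SD, n = 4 clones) and 1.59 ± 0.133 CPM in R42A neural cells (SD, n = 2 clone labels), and 0.0145 ± 0.0175 and 2.04 ± 0.0979 CPM in MD. The other 2, Wdr82 and Huwe1, fell from ESC to neural cells in both genotypes. On the log2 scale Wdr82 changed by -0.48 ± 0.07 in R42A and -0.39 ± 0.07 in MD. The values of Huwe1 were -0.41 ± 0.04 and -0.42 ± 0.04. Huwe1, host of let-7f and miR-98 hairpins, was lower in MD in ESC, by -0.22 ± 0.05 (adjusted p = 0.0121 in edgeR), and in neural cells, by -0.20 ± 0.04 (adjusted p = 0.012), on the log2 scale. The ESC call did not hold without the run term (adjusted p = 0.274 in edgeR) or in either run alone (0.158 and 0.0992). The neural call did not hold without clone 09 or 30 (adjusted p = 0.149 and 0.157), nor with each chromosome scaled separately (-0.10, adjusted p = 0.19), nor with all 12 sums (0.486).

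Among 29 other known let-7 targets, 21 of which held a seed match, 8 of 28 tested were higher and 5 lower in MD ESC (17.1% and 19.4% of all genes; median 0.07, against -0.04 for all genes). In MD neural cells 6 of 29 were higher and 13 lower (17.4% and 16.3% of all genes; median -0.13, against 0.00). Prtg, a receptor of early neural epithelium, was 26.4 ± 8.99 CPM in R42A ESC and 51.3 ± 9.89 CPM in MD ESC (log2 change 0.94 ± 0.16, adjusted p = 0.00196 in edgeR). In neural cells it was 548 ± 11.4 and 320.0 ± 11.2 CPM, a change of -0.77. The G1 kinase gene Cdk6 had the same pattern, higher by 0.80 ± 0.16 in MD ESC (adjusted p = 0.00553 in edgeR) and lower by -0.95 ± 0.10 in MD neural cells (adjusted p = 0.000804). Irs2, an adaptor of insulin and IGF receptors, was 12.5 ± 1.70 and 21.3 ± 3.97 CPM in ESC and 176 ± 5.53 and 77.3 ± 2.16 CPM in neural cells of R42A and MD, and its difference of effects was the most negative of the list, at -1.87 ± 0.10 (adjusted p = 0.000224 in edgeR).

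Other targets went the opposite way. E2f2, a cell cycle transcription factor, was 29.4 ± 4.58 CPM in R42A ESC and 12.6 ± 2.06 CPM in MD ESC (log2 change -1.25 ± 0.06, adjusted p = 1.63e-05 in edgeR), and was higher in MD neural cells, by 0.27. Acvr1b, an activin receptor, was lower in MD ESC by -0.76 ± 0.09 (adjusted p = 0.000395 in edgeR). Onecut2, a transcription factor of newborn neurons, was 61.2 ± 0.871 CPM in R42A and 134 ± 1.31 CPM in MD neural cells (log2 change 1.14 ± 0.09, adjusted p = 0.000232 in edgeR), beside the neuron markers at 608 to 714 and 1760 to 1850 CPM. Over the list the difference of the effects was lower for 13 and higher for 5 of 29 (11.1% and 11.9% of all genes; median -0.36, against 0.02 for all genes). From ESC to neural cells 19 rose and 7 fell in R42A (37.9% and 40.4% of all genes), and 17 rose and 11 fell in MD (40.3% and 41%). Nr2e1, a neural stem cell receptor gene, went from 0.0122 ± 0.00726 to 29.6 ± 0.152 CPM in R42A.

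**Figure D5:**
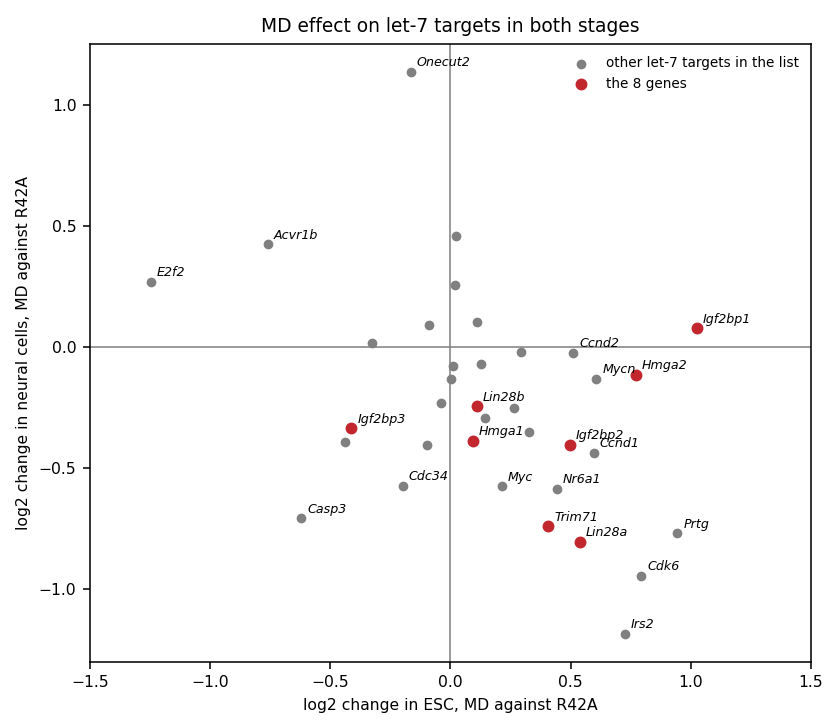
MD change in ESC (x axis, log2) against MD change in neural cells (y axis, log2) for the 8 genes (red) and 28 other let-7 targets tested in both (grey), with names for the 8 and for genes past 0.5 in size on either axis. Lin28a, Trim71 and Igf2bp2 lie in the lower right with Prtg, Cdk6, Irs2, Ccnd1 and Nr6a1, and E2f2 and Acvr1b lie in the upper left.

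RNAs that the IGF2BP proteins bind or that TRIM71 represses were also followed. Of 10, 5 were higher and 4 lower in MD ESC (17.1% and 19.4% of all genes), and 3 were higher and 3 lower in MD neural cells (17.4% and 16.3%), with medians of 0.06 and -0.12 against -0.04 and 0.00 for all genes. Igf2, the growth factor mRNA that gave the IGF2BP family its name, was 3.49 ± 2.49 CPM in R42A ESC and 16.9 ± 8.42 CPM in MD ESC (log2 change 2.15 ± 0.59, adjusted p = 0.0196 in edgeR). In neural cells it was 321 ± 0.484 CPM in R42A and 78.9 ± 0.542 CPM in MD (log2 change -2.03 ± 0.42, adjusted p = 0.00938 in edgeR). The ESC change of Igf2 was 1.12 in the first run alone and 3.29 in the second, neither of which passed (adjusted p = 0.254 and 0.0598 in edgeR). Its ESC call was also lost without A02 (adjusted p = 0.0771) and with no filter on low counts (0.123), and the neural call without clone 09 or 30 (0.156 and 0.162). H19, the noncoding RNA next to Igf2, was higher in MD at both stages, at 5.97 ± 3.22 against 70.3 ± 38.9 CPM in ESC (log2 change 3.60 ± 0.46, adjusted p = 0.000543 in edgeR) and 72.4 ± 1.301 against 230.0 ± 6.75 CPM in neural cells (1.66 ± 0.25, adjusted p = 0.00265). The neural call of H19 was lost without A04 or A10 (adjusted p = 0.153 and 0.157). Rbl2, a retinoblastoma family member, was lower in MD ESC, at 8.83 ± 0.839 against 20.5 ± 2.25 CPM (log2 change -1.23 ± 0.08, adjusted p = 3.45e-05 in edgeR). The genes of chromosome 8, where Rbl2 lies, had a median of -0.46 in ESC, and with each chromosome scaled separately the change of Rbl2 was -0.77 ± 0.08 (adjusted p = 0.000325 in edgeR).

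Of 11 factors of later neural development, 9 rose and 1 fell (Nfib) from ESC to neural cells in each genotype, beside 37.9% and 40.4% of all genes in R42A and 40.3% and 41% in MD. In MD neural cells 5 of the 11 were higher than in R42A and 0 lower (17.4% and 16.3% of all genes; median 0.23, against 0.00). Zbtb20, a repressor of late neural progenitors, was 14.7 ± 0.267 CPM in R42A and 41.6 ± 0.979 CPM in MD (log2 change 1.51 ± 0.10, adjusted p = 0.00014 in edgeR). Sox9, a factor of the change from neurons to glia, was 20.8 ± 0.535 and 57.6 ± 1.92 CPM (log2 change 1.47 ± 0.19, adjusted p = 0.0016 in edgeR), and its call was lost without clone 09 or 30 (adjusted p = 0.0665 and 0.0742). Sox9 lies on chromosome 11, and with each chromosome scaled separately its change was 1.02 ± 0.18 (adjusted p = 0.00538 in edgeR). In ESC, 1 was higher and 2 lower in MD (17.1% and 19.4% of all genes). Of the lower ones, Nfix lies on chromosome 8, and with each chromosome scaled separately its change of -0.49 was -0.02 (adjusted p = 0.937 in edgeR). Sox9 was under 2 CPM in every ESC clone, the highest at 1.38 CPM. Glia markers (Gfap, Olig2, Aqp4) summed to 7.77 to 8.38 CPM in R42A and 8.94 to 10.2 CPM in MD neural cells. Gene by gene, 0 of the 3 were higher in MD neural cells, 1 was lower and 2 did not pass. Their median log2 change was -0.78.

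Across all genes, the median change between stages was larger with let-7 seed matches than without, while the medians for genotype moved little. Genes with 0 matches had a median log2 change from ESC to neural cells of 0.00 in R42A, against 0.31 with 1 match (1456 genes), 0.33 with 2 (173 genes) and 0.47 with 3 or more (24 genes). In MD these medians were 0.01, 0.30, 0.29 and 0.47. UTR length moved with the number of matches, from a median of 993 bases with 0 matches to 4459 with 3 or more. Among genes with UTRs of 1500 to 3000 bases, the medians were 0.20 with 0 and 0.32 with 1 or more in R42A, and 0.24 and 0.36 in MD. The shares called there were close. In R42A, 48.0% with 0 and 49.1% with 1 or more were higher in neural cells, and 35.2% and 33.4% lower. For MD against R42A the medians by number of matches lay between -0.02 and 0.06 in ESC and between -0.07 and 0.00 in neural cells. These are descriptions across genes, which are not independent replicates.

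By the pattern of mean-centred log2 CPM over the 12 clone sums, the genes nearest to Lin28a among 23854 compared were Eno4 and Tsen15, with root mean square differences of 0.14 and 0.16, where Lin28a itself varied by 0.48. Nearest to Lin28b were Rcn2 and Frmd5 (0.12 and 0.13, own variation 0.82), and nearest to Trim71 were Pik3cb and Foxo1 (0.10 and 0.13, own variation 0.58). Hmga1 was nearest to Pgp and Sars2 (0.08 and 0.09, own variation 0.54), which therefore share its split by library run. Hmga2 was nearest to Tcaf1 and Nrep (0.22 for both, own variation 2.12). For Igf2bp1 the nearest were Helz and Cbx1 (0.12 and 0.14, own variation 0.48), both on chromosome 11 like Igf2bp1. Igf2bp2 was nearest to Ifnar1 and Gpc3 (0.14 for both, own variation 0.43) and Igf2bp3 to Gm9845 and Sfxn5 (0.10 and 0.13, own variation 0.72). None of the nearest genes was another of the 8.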

How the data were processed

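The authors deposited 1 table per library of expected counts per gene, not normalised, of which 1.46% to 1.70% were not whole numbers within 1e-06. Named in the submitters' processing notes are RSEM 1.3.0, STAR 2.7.1a, Trim Galore 0.60, an unversioned DESeq2 and the build mm10. The annotation release and the use of strand are not given in the sources used here, so overlapping and antisense genes are uncertain. The 92 spike-in entries, with a total of 0, were left out.

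For the tests, expected counts were rounded and added up within each clone and stage. edgeR 4.0.16 (R 4.3.3) was run with TMM scaling, filterByExpr (minimum count 10), robust quasi-likelihood F-tests and Benjamini-Hochberg adjustment over all genes tested, called at 0.05. The ESC comparison used 8 sums with library run as covariate. The other 4 came from 1 fit of 4 groups on 8 sums of the clone labels A04, A10, 09 and 30. That fit had no clone term, so the ESC sum and the neural sum of a clone label were treated as independent. Scripts were tested on simulated counts. Levels are CPM per library, averaged per clone, with the SD over clones. Libraries of a clone were not sampling duplicates, with a chi-square of 2.99 to 116.56 per degree of freedom over 28 pairs. The labels do not say that clones or libraries came from separate cultures, so p-values measure only the spread between clone sums, which may be technical.

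The 8 genes, the lists and the tests were chosen with earlier results of these data known. All 8 genes are named in every comparison. From each list, at most 2 called genes in each direction were named by size, and a few others in the text were chosen after their values were seen (Irs2 in ESC, Prtg and E2f2 in neural cells, and the genes named in the plot of targets). The 2 nearest genes to each of the 8 were named. Alternatives were DESeq2 1.42.0, limma voom (limma 3.58.1), DESeq2 size factors, no filter, chromosomes scaled separately, libraries as replicates, other sets of sums, and each clone left out. Hmga1 counted with Hmga1b, the neural comparison on all 12 sums and the contrast of library runs were added after seeing the data.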

Additional observations from a re-analysis of the deposited data

Results flagged for a closer look

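For 6 of the 8 genes the MD effect differed between the stages by a test of the difference itself (edgeR, adjusted p from 0.000569 to 0.00519). On the log2 scale, the effect in neural cells less that in ESC of the same clone labels was -1.0516 for Igf2bp1, -0.8891 for Igf2bp2, -0.5237 for Hmga1, -1.4791 for Lin28a, -0.7283 for Hmga2 and -1.193 for Trim71. Lin28a, Trim71 and Igf2bp2 were higher in MD ESC and lower in MD neural cells. For Igf2bp1 and Hmga2 the MD effect passed in ESC only, and for Hmga1 in neural cells only. All 6 were lost without clone 09 or clone 30, with their sign kept. The stages differ in library run, whose part in these differences cannot be told apart, and Hmga1 is the gene of the 8 that differed most between ESC runs. In the 32 groups of 4 clones or libraries checked, 0 values were flagged as far from the others. The ESC groups were of clones, so single ESC libraries were not checked. Replicate 3 of clone A04 was well above every other R42A ESC library for Igf2bp1 (637 CPM) and Lin28a (366 CPM). The check looks for a single value far from the rest, so it cannot flag a split into pairs, as for Hmga1 by library run.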

How the results depend on the processing

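Over the alternatives run, 473 of 541 values of the 8 genes kept their direction and their side of the threshold, 47 lost and 11 gained the call, and 10 changed sign, while of 1081 values of the named list genes 954 held, 125 lost the call and 2 changed sign. Causes were not tested. For MD against R42A in ESC, 3084 genes were called without the library run term, 1769 in the first library run alone and 4878 in the second, against 7862. The 5 higher calls among the 8 genes became 3 without the run term, and the 1 lower call became 0 with no filter, with each chromosome scaled separately, without the run term and in either run alone, and was 0 to 1 with a clone left out. In neural cells, 1538 to 9967 genes were called with a clone left out, 13643 with neural sums alone and 2562 with all 12 sums, against 8030. Of the 8 genes, 1 was higher and 7 lower with neural sums alone, 2 were lower with all 12 sums, and 2 to 4 were lower with a clone left out. In R42A, 1 to 2 of the 8 genes fell from ESC to neural cells with a clone left out. The difference of the MD effects was called for 77 to 8759 genes with a clone left out and for 1889 with all 12 sums, against 5472, and for 0 to 7 of the 8 genes, lower, with a clone left out.

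Sign changes in results that had passed were -0.18 for Ddx5 in ESC with chromosomes scaled separately, 0.15 for Ago3 from ESC to R42A neural cells with all 12 sums, and -0.31 for Hmga1 from ESC to MD neural cells with all 12 sums. The others had not passed: Igf2bp1 in neural cells at -0.37 with chromosomes scaled separately, Igf2bp1 between R42A stages at 0.0445 with that scaling and 0.056 with all 12 sums, and Lin28a between R42A stages at 0.011 with that scaling. With a clone left out, Lin28a between R42A stages ran from -0.27 (without A10) to 0.0239 (without A04), and the Igf2bp3 difference of effects from -0.13 (without 30) to 0.32 (without 09).

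Libraries were not taken as paired by replicate number, since not every same-numbered pair had deviations correlated over 0.1. These ran from -0.368 to 0.328 in the first run and -0.031 to 0.238 in the second, against -0.473 to 0.445 and -0.234 to 0.128 for different numbers. In neural cells they were -0.013 to 0.031 and -0.031 to 0.013. Each neural label has 2 libraries, whose deviations from their mean are opposite, so these neural ranges mirror each other by construction. They cannot compare same with different numbers. In the second run, the same-numbered pairs of replicates 2 and 3 were at 0.127 to 0.238. With libraries as replicates and the replicate number as a block, 10111, 8467, 16625, 17097 and 7179 genes were called in the 5 comparisons (10110, 8538, 17799, 18235 and 7188 without the block), and the R42A stage changes of Igf2bp1 and Lin28a were 0.0577 and 0.0296. At this depth, 0 of 12 let-7 hairpin genes passed the filter on low counts.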
